A study of Mus musculus with 9 samples.

Results

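Afp, Gpc3, H19, Igf2, Dlk1 and Igfbp1 were followed, 6 genes known from fetal liver, imprinted growth control or hepatoma. They were taken by name, as the symbols of array probes that are not controls. All 6 of them had probes, 9 of 41174 probes in all, and all 6 were among the 14253 genes tested of 27573 genes named. Every group came from the same 3 female BALB/c athymic mice, numbered 832, 833 and 834. Day 10 TIC is the cell fraction enriched in infiltrating inflammatory cells that was ground out of the subcutaneous Hepa1-6 tumour of each mouse 10 days after inoculation. Day 10 blood is whole blood of that day from mice bearing the tumour. Day 0 blood is whole blood of the same mice before the tumour cells were given. Each group held 3 arrays, 1 a mouse, and each array set the sample, in the dye Cy5, against a common reference in the dye Cy3, blood RNA from untreated C57Bl/6 females. Hepa1-6 is a mouse hepatoma cell line, so all tumours stem from 1 line, and athymic hosts keep B cells, natural killer cells and myeloid cells while lacking most T cells. TIC and blood RNA were isolated with different kits, so kit and tissue cannot be told apart. The ages of the mice were not given in the labels.

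Alpha-fetoprotein, the product of Afp, is the main plasma protein of the fetal liver and is switched off around birth, and it returns in many hepatomas and in regenerating liver. Gpc3 encodes glypican 3, a heparan sulfate protein of the cell surface that is likewise high in fetal liver and in hepatocellular carcinoma. Igf2, a fetal growth factor, and H19, a noncoding RNA, lie side by side and are imprinted in opposite ways, Igf2 being read from the paternal copy and H19 from the maternal one. Dlk1, a membrane protein with similarity to Notch ligands, marks fetal hepatoblasts and is also imprinted, from the paternal copy. Igfbp1 encodes a binding protein for insulin-like growth factors that hepatocytes secrete, and unlike the others it is neither imprinted nor limited to the fetal liver. The genes were read as a gauge of tumour cells in a fraction prepared for its inflammatory cells, and of tumour RNA in blood.

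The promoters of Afp and Igfbp1 are shown because these genes carried the bright signals described below. The stretches are the 250 bases before the RefSeq start of each gene on build GRCm38.p6, from 5′ to 3′ along the gene, with no letters marked. The Afp stretch is chr5:90490464-90490713 on the plus strand and the Igfbp1 stretch is chr11:7197537-7197786 on the plus strand.
Afp: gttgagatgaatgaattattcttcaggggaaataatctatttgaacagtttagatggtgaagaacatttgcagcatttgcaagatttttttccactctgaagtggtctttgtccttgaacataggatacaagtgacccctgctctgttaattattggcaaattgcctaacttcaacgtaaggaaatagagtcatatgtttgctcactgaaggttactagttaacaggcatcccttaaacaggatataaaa
Igfbp1: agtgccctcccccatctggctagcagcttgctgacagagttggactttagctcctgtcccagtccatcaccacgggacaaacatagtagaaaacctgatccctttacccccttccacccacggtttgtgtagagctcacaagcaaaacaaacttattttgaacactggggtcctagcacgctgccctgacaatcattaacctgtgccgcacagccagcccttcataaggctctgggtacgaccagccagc
Base composition differed between the promoters, with 36% G and C in the Afp stretch, 53.2% in that of Igfbp1 and 71.6% in that of Gpc3, against a median of 52.4% over 32851 stretches of the same length.

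Sample RNA was brightest on the TIC arrays, where 48.2% to 55.1% of spots were well above background in Cy5, against 14.2% to 21.0% on day 10 blood arrays and 24.3% to 36.9% on day 0 blood arrays. In the Cy3 reference the share was 40.2% to 50.4% on all 9 arrays. Intensities are given as Cy5 net intensity, the mean of a spot minus the median of its local background. Negative control spots had medians of 0.391 to 1.43 units on this scale, and their highest values lay between 5.33 and 11.4 units. Of 19 hepatocyte and hepatoma genes on the array 14 passed the filter on dim probes, and all 14 were above background on each of the 3 TIC arrays, against 2 to 4 of them on day 10 blood arrays and 3 to 6 on day 0 blood arrays. As 10 of these 14 were above background on the TIC arrays and on no day 10 blood array, the filter itself favours that contrast. Of 22 tested leukocyte genes 20 to 22 were above background on the TIC arrays, 15 to 18 on day 10 blood arrays and 19 to 20 on day 0 blood arrays. In bulk RNA, fewer cells of a type and less RNA per cell cannot be told apart.

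Afp was bright in every TIC fraction and close to background in every blood. Its probe lies at chr5:91583955-91584014 on build mm8 and was printed on 10 spots per array. The net intensity was 49219, 35559 and 20972 units in the TIC fractions of mice 832, 833 and 834. In day 10 blood of these mice it was 7.51, 5.69 and 5.45 units, and in day 0 blood 20.5, 11.7 and 6.07 units. The lowest TIC value thus stood far above the highest blood value, and the bloods of both days overlapped. The spots gave this a technical error, with an SD of 6116, 5407 and 3856 units over the 10 spots of the TIC arrays and of 1.84 to 3.33 units over the spots of the day 10 blood arrays.

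A weak Afp signal was above background in day 0 blood of mice 832 and 833, before any tumour cell had been given. Their arrays lay on a slide with TIC fractions. Day 0 blood of mouse 834, not above background, lay on the slide of the day 10 bloods. For mice 832 and 833, day and slide therefore cannot be told apart. In day 10 blood 5 of 10, 3 of 10 and 1 of 8 usable spots of mice 832, 833 and 834 were above background, against 9 of 9, 8 of 9 and 1 of 10 in day 0 blood. Set against the TIC fraction of the same mouse, the intensity was 0.0153%, 0.016% and 0.026% in day 10 blood. It was 0.0417%, 0.0329% and 0.0289% in day 0 blood, so that it was higher before inoculation in each mouse. The day 10 blood arrays were also the dimmer ones, with an upper quartile of 4.79 to 6.62 units over all spots against 8.58 to 19.7 units in day 0 blood. Divided by that quartile, the Afp level relative to the TIC fraction was 0.561%, 0.244% and 0.499% in day 10 blood, against 0.431%, 0.204% and 0.31% in day 0 blood. With this scaling the order of the days turned round in all 3 mice, and the values are near the limit of detection on both scales.

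On the normalized scale, the log2 ratio to the reference, Afp averaged 5.49 ± 0.65 in the TIC fraction, 0.14 ± 0.06 in day 10 blood and 0.16 ± 0.12 in day 0 blood (SD, n = 3 each). The difference was 5.35 ± 0.28 (SE) for TIC against day 10 blood, with a limma adjusted p of 1.72e-06, and it was 4.95, 6.15 and 4.94 in mice 832, 833 and 834. Against day 0 blood it was 5.32 ± 0.28, with a limma adjusted p of 2.60e-06. This was the highest difference of all 14253 genes in both comparisons. That rank depended on the scale, since Afp took ranks 158 (day 10 blood) and 61 (day 0 blood) with the scanner software's processed signals, and at 35 and 1 with median centring. Its call was kept in all 23 other settings in which it could be tested. The ratio holds a denominator that moved as well. The Cy3 signal of the same reference RNA at the Afp probe was 73.9, 149 and 86.2 units on the TIC arrays, against 26.6 to 28.5 units on day 10 blood arrays and 28.2 to 29.8 units on day 0 blood arrays. The ratio therefore gives a smaller difference than Cy5 alone, and the part of the Cy3 shift in it was not tested.

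Igfbp1 was the other bright gene and, unlike Afp, gave no signal above background in any blood. Its single spot, at chr11:7102442-7102501 on mm8, had a net intensity of 39284, 36508 and 25569 units in the TIC fractions of mice 832, 833 and 834. Bloods of day 10 read -1.69, 2.12 and 1.58 units, and bloods of day 0 read 5.0, 3.21 and 0.0938 units. All blood values lay within the range of the negative controls. The log2 ratio averaged 4.67 ± 0.45 in the TIC fraction, 0.01 ± 0.09 in day 10 blood and 0.01 ± 0.14 in day 0 blood (SD, n = 3 each). The difference was 4.66 ± 0.21 (SE) in both comparisons, with a limma adjusted p of 1.03e-06 against day 10 blood and 1.55e-06 against day 0 blood. Igfbp1 stayed called in all 23 other settings in which it was tested.

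Since blood gave only a bound for Igfbp1, the fold was also set on a single-channel scale (each dye by itself, after loess and Aquantile), where dye bias is possible. Igfbp1 was at least 95.2-fold higher in the TIC fraction than in day 10 blood and at least 97.7-fold higher than in day 0 blood. The fold of the fitted ratio was 25.2 and 25.3, on a scale where both channels carry an offset of 50 units. At this spot the Cy3 reference read 91.6, 408 and 219 units on the TIC arrays, against 10.1 to 12.6 units on day 10 blood arrays and 12.0 to 25.3 units on day 0 blood arrays.

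**Figure D1:**
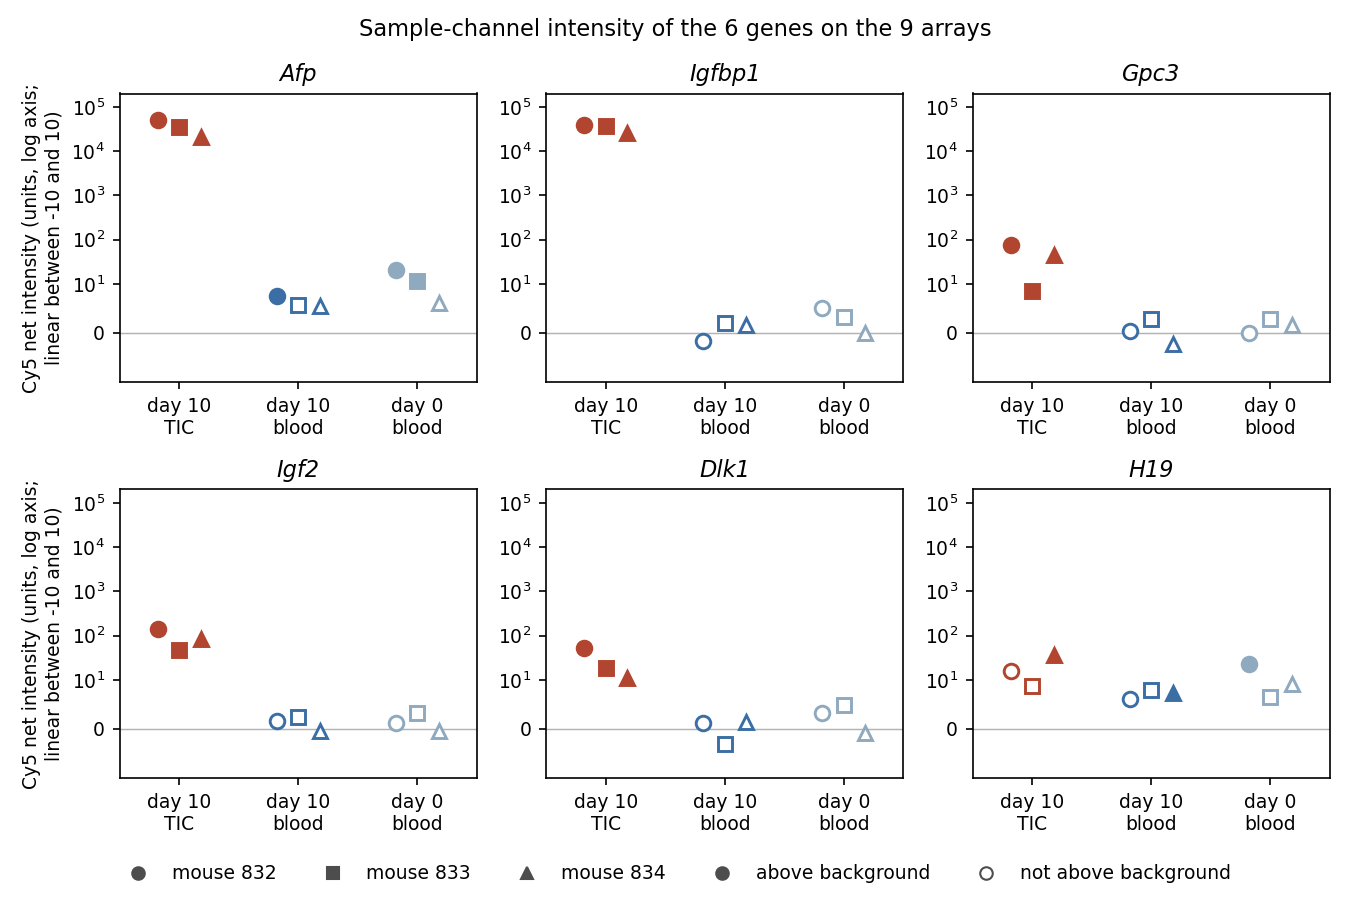
Cy5 net intensity (units, log axis that is linear between -10 and 10) of the probe used for each gene, 1 point per array, for day 10 TIC, day 10 blood and day 0 blood of mice 832, 833 and 834; filled points are well above background. Afp and Igfbp1 lie between 20972 and 49219 units in the TIC fractions, while Gpc3, Igf2 and Dlk1 lie between 8.48 and 142 units there and not above background in blood.

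Gpc3, the oncofetal glypican, was above background in the TIC fractions but dim. At its spot, chrX:48517190-48517249 on mm8, the net intensity was 75.1, 8.48 and 45.5 units in the TIC fractions of mice 832, 833 and 834. Bloods of day 10 read 0.392, 2.93 and -2.26 units, and bloods of day 0 read 0.0833, 2.77 and 1.56 units. The TIC intensities lay above those of all bloods, and the TIC fraction of mouse 833 was the dimmest of the 3. The probe passed the filter through the TIC arrays alone, so that order was favoured in advance. After scaling TIC and blood did overlap, since the log2 single-channel level was 5.97 in the TIC fraction of mouse 833, against 6.08 in its day 10 blood. The log2 ratio averaged 0.25 ± 0.16 in the TIC fraction, -0.10 ± 0.11 in day 10 blood and -0.11 ± 0.06 in day 0 blood (SD, n = 3 each). The difference was 0.35 ± 0.11 against day 10 blood and 0.36 ± 0.11 against day 0 blood, with limma adjusted p-values of 0.0247 and 0.0223. On that single-channel scale the bound on the group means was at least 1.11-fold and at least 1.15-fold. Its call was lost in 10 of 23 other settings against day 10 blood and in 7 of 23 against day 0 blood. Among them were the settings without the TIC fraction of mouse 832 (adjusted p = 0.0648 and 0.0601) and of mouse 834 (adjusted p = 0.0828 and 0.0761), and without day 10 blood of mouse 832 (0.0661) or of mouse 834 (0.0891). Against day 0 blood the call was also lost without day 0 blood of mouse 832 (0.0711). With mouse as a block, the call against day 10 blood was lost by a small margin (adjusted p = 0.0506).

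Igf2, the imprinted growth factor, was likewise present at a low level in the TIC fractions. The brighter of its probes, at chr7:142460185-142460245 on mm8 with 10 spots, had a net intensity of 142, 48.0 and 84.1 units in the TIC fractions of mice 832, 833 and 834. In day 10 blood it was 1.65, 2.51 and -0.490 units, and in day 0 blood 1.14, 3.23 and -0.375 units. Every usable spot was above background in the 3 TIC fractions and none in the 6 bloods. The spots of the TIC arrays had an SD of 18.3, 5.35 and 7.45 units. The other Igf2 probe, at chr7:142460600-142460659, read 49.7, 17.4 and 25.1 units in the TIC fractions and from -0.677 to 0.938 units in the 6 bloods, with the same order of mice.

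The log2 ratio of Igf2 averaged 0.40 ± 0.14 in the TIC fraction, -0.01 ± 0.06 in day 10 blood and -0.05 ± 0.06 in day 0 blood (SD, n = 3 each). The difference was 0.41 ± 0.10 against day 10 blood and 0.45 ± 0.10 against day 0 blood, with limma adjusted p-values of 0.00734 and 0.00495. On the single-channel scale the bound on the group means was at least 1.33-fold and at least 1.37-fold. The other probe gave differences of 0.43 ± 0.08 and 0.41 ± 0.08 in a fit over all 19995 kept probes, with limma adjusted p-values of 0.00204 and 0.00279. The fitted differences were thus alike at both probes, but mean net intensity in the TIC fractions was 91.4 units at one and 30.7 at the other. Like ratios therefore do not show an equal rise. Both probes passed the filter through the TIC arrays alone, so a higher level there was favoured in advance and their likeness gives no support. The call of Igf2 was lost in 2 of 23 other settings against day 10 blood and in 1 of 23 against day 0 blood. All of these settings had slide as a block.

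Dlk1, the hepatoblast marker, gave different answers at its 2 probes. The probe used, at chr12:109908264-109908323 on mm8, had a net intensity of 52.6, 18.6 and 11 units in the TIC fractions of mice 832, 833 and 834. Day 10 blood gave 1.21, -3.13 and 1.35 units, and day 0 blood 3.20, 4.98 and -0.883 units. The TIC values lay above all blood values here. This probe passed the filter through the TIC arrays alone, so that order was favoured in advance. The difference in log2 ratio was 0.47 ± 0.13 against day 10 blood and 0.42 ± 0.13 against day 0 blood, with limma adjusted p-values of 0.0104 and 0.0179. On the single-channel scale the bound on the group means was at least 1.11-fold and at least 1.14-fold. The other probe, at chr12:109908025-109908084, read 19.1, 5.88 and 5.46 units in the TIC fractions and was above background in that of mouse 832 alone, so it did not pass the filter. Tested without that filter it differed by 0.11 ± 0.06 against day 10 blood (limma adjusted p = 0.205) and 0.08 ± 0.06 against day 0 blood (0.377). The call of Dlk1 was lost in 5 of 23 other settings against day 10 blood and in 9 of 23 against day 0 blood. Leaving out the TIC fraction of mouse 832 ended the call against day 0 blood (adjusted p = 0.0588), as did leaving out day 0 blood of mouse 832 (0.0508) or of mouse 834 (0.0651).

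H19, the imprinted noncoding RNA beside Igf2, was the only one of the 6 whose ratio fell in the TIC fraction, and it is the member whose direction rests most on the scale. The probe used, with a span of chr7:142385503-142385650 on mm8, had a net intensity of 16.0, 8.68 and 36.3 units in the TIC fractions of mice 832, 833 and 834. In day 10 blood it was 6.15, 7.84 and 7.25 units, and in day 0 blood 22.7, 6.48 and 9.18 units. Before normalization the TIC values were therefore above those of day 10 blood in each mouse and overlapped those of day 0 blood. The other probe, at chr7:142385254-142385313, read 37.3, 12.9 and 26.0 units in the TIC fractions, 8.08, 8.11 and 7.97 units in day 10 blood and 22.3, 12.3 and 8.80 units in day 0 blood. It showed the same order, with 3 of 3 TIC arrays above background.

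Relative to the other genes of each array the order of H19 was the opposite one. Its log2 ratio averaged -1.42 ± 0.25 in the TIC fraction, -0.03 ± 0.08 in day 10 blood and -0.33 ± 0.25 in day 0 blood (SD, n = 3 each). The difference was -1.38 ± 0.16 against day 10 blood and -1.08 ± 0.16 against day 0 blood, with limma adjusted p-values of 1.10e-04 and 5.36e-04, and it was negative in 3 of 3 mice in both. The other probe fell by 0.95 ± 0.11 and by 0.71 ± 0.11, with limma adjusted p-values of 7.98e-05 and 5.37e-04. With each array centred on its median in place of loess, H19 differed by -0.08 (adjusted p = 0.613) against day 10 blood and by -0.16 (0.333) against day 0 blood. On that scale the median of all genes moved to 1.38 and 1.16, so H19 stayed below most genes. With Cy5 alone its call against day 0 blood was also lost, at -0.39 (adjusted p = 0.115). The Cy3 reference had H19 signal itself, 62.2 to 117 units on the TIC arrays, 74.5 to 78.8 units on day 10 blood arrays and 68.9 to 84.4 units on day 0 blood arrays. The probe used was above background in Cy5 on 1 of 3 arrays of each group.

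**Figure D2:**
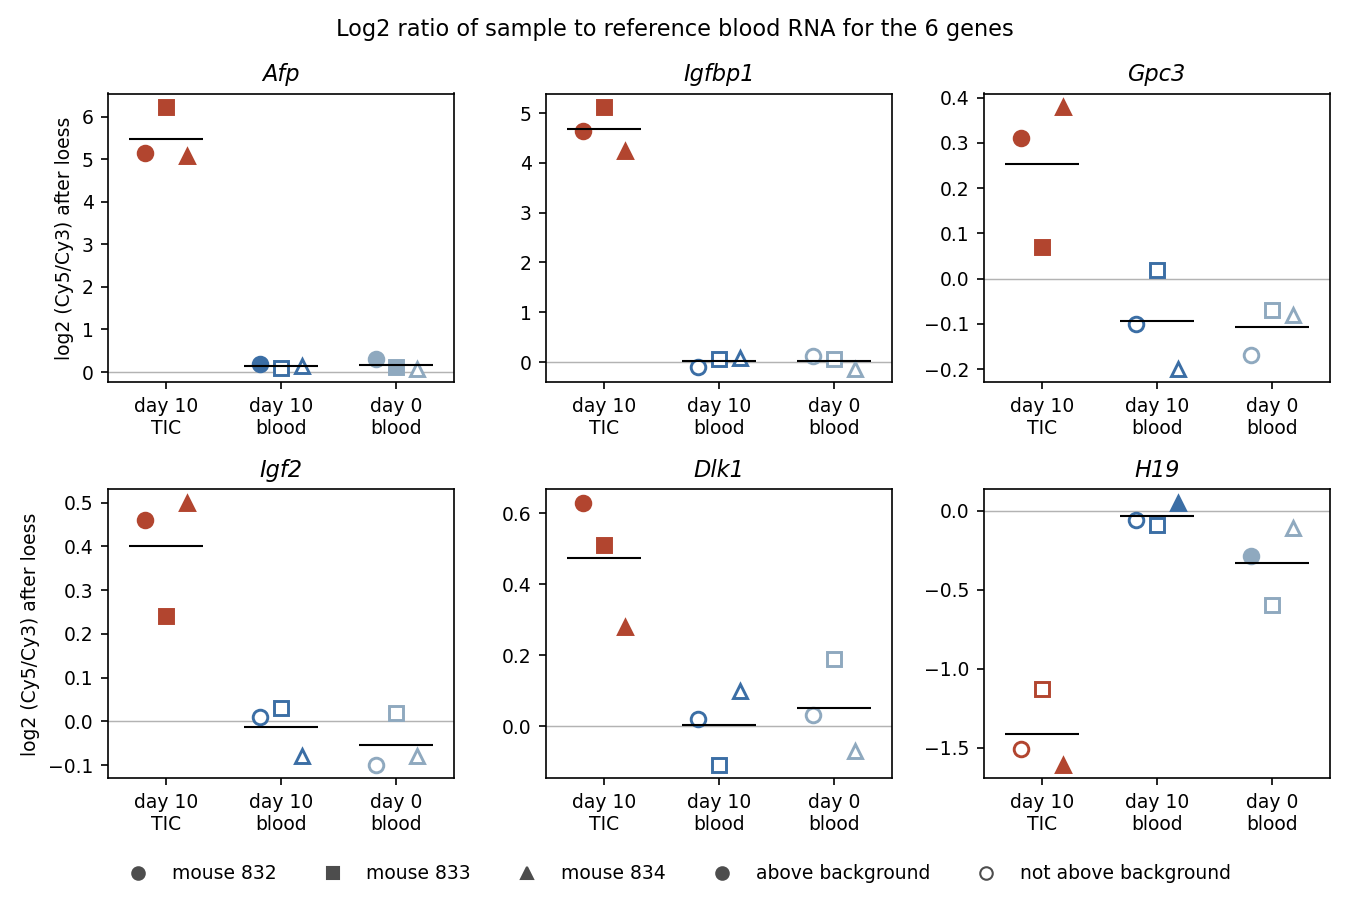
Log2 ratio of Cy5 to Cy3 after loess for the probe used of each gene, 1 point per array with the group mean as a line, for day 10 TIC, day 10 blood and day 0 blood; filled points are well above background. The TIC arrays average 5.49 for Afp and 4.67 for Igfbp1, between 0.25 and 0.47 for Gpc3, Igf2 and Dlk1, and -1.42 for H19.

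Over the 6 genes, 5 were called higher and 1 lower in the TIC fraction against day 10 blood at a limma adjusted p under 0.05, where 34.4% of all genes tested were called higher, 33.1% lower and 67.6% in either direction. Against day 0 blood the counts were the same, 5 and 1, where 31.7% of all genes were called higher, 33.6% lower and 65.4% in either direction. Igfbp1, Igf2, Gpc3 and Dlk1 had entered the test through the 3 TIC arrays alone, so the filter favoured that direction and their calls give no support. Of all genes tested, 3150 were above background on the 3 TIC arrays and on no blood array. Against day 10 blood 64.1% of these were called higher and 2.57% lower, with a median difference of 0.42. Igf2 at 0.41 and Dlk1 at 0.47 lay near that median and Gpc3 at 0.35 below it, while Igfbp1 at 4.66 lay far above it. The median over the 6 genes was 0.44 in both comparisons, against 0.07 and 0.01 over all genes. With median centring this turned round, with a median of 0.73 and 0.76 over the 6 genes against 1.38 and 1.16 over all genes. On that scale 3 of the 6 were called higher against day 10 blood, beside 72.1% of all genes, and Igf2, Gpc3 and Dlk1 stood at ranks 8719, 10294 and 11268 of 14253.

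**Figure D3:**
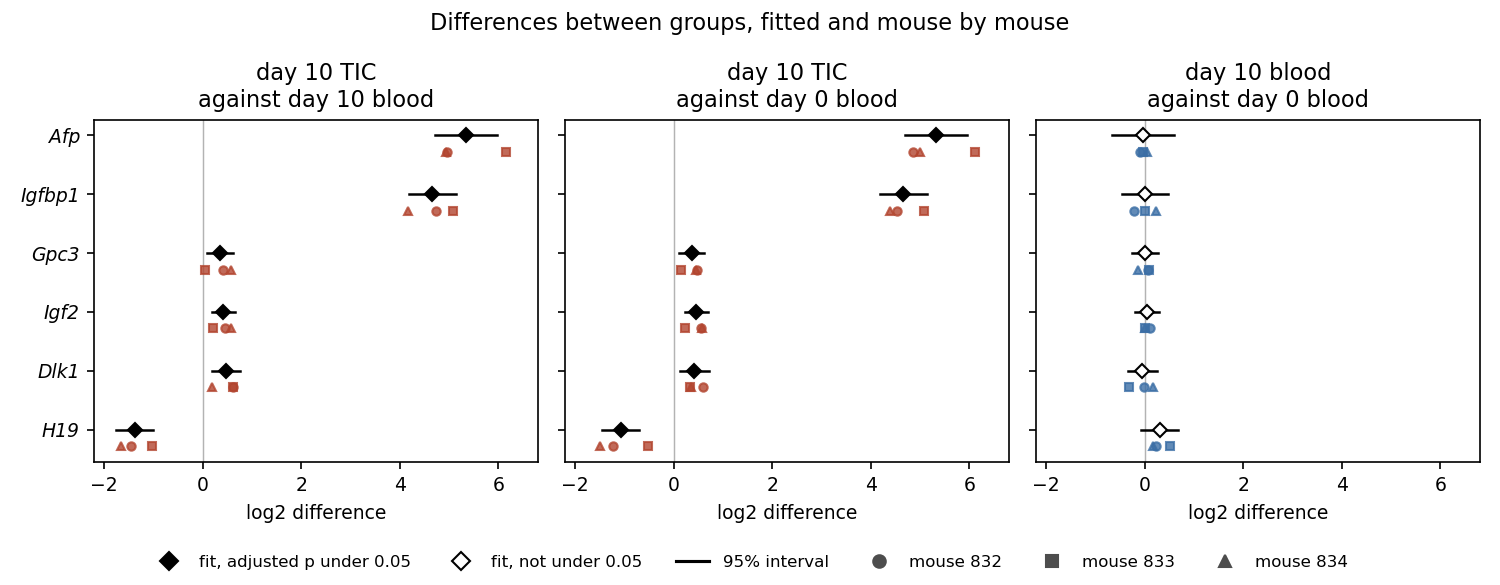
Log2 difference of each gene in the 3 comparisons, with the limma fit as a diamond (filled where the adjusted p was under 0.05), its 95% interval as a line, and the differences of mice 832, 833 and 834 as points beneath. Afp and Igfbp1 lie between 4.16 and 6.15 in every mouse for the TIC fraction against either blood, and all intervals of day 10 blood against day 0 blood include 0.

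The mice did not keep 1 order over the 6 genes. Mouse 833 had the highest TIC ratio of Afp, 6.24 against 5.15 in mouse 832 and 5.07 in mouse 834. It also had the highest ratio of Igfbp1, 5.13 against 4.65 and 4.24. For Igf2, however, it had the lowest ratio at the probe used, 0.24 against 0.46 and 0.50, though not at the other probe, with 0.38 against 0.46 in mouse 832 and 0.32 in mouse 834. Gpc3 followed Igf2, with 0.07 in mouse 833 against 0.31 in mouse 832 and 0.38 in mouse 834. Dlk1 followed neither pair, with 0.63, 0.51 and 0.28 in mice 832, 833 and 834. Divided by the upper quartile of each array, net intensity in mouse 833 was again the highest for Afp and the lowest for Gpc3. Afp was at 352 there against 241 in mouse 832 and 228 in mouse 834, and Gpc3 at 0.084 against 0.368 and 0.495. Igfbp1 was also highest in mouse 833, at 361, but the other mice changed order, with 193 in mouse 832 and 278 in mouse 834. On net intensity without scaling, mouse 832 was the brightest at the probes used for all genes but H19, so these orders depend on the scale. With 1 array a mouse these orders have no test. As a description over the 9 arrays, which share the same 3 mice and 1 reference, Afp and Igfbp1 correlated at 0.998 and Igf2 and Gpc3 at 0.973, and Gpc3 and Dlk1 at 0.647.

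The arrays lay on 3 slides, and slide was compared as a batch. On the slide that held TIC fractions of mice 833 and 834 beside day 0 blood of mice 832 and 833, the difference was 5.45 for Afp, 4.59 for Igfbp1, 0.41 for Igf2, 0.35 for Gpc3, 0.28 for Dlk1 and -0.93 for H19. These values had the same signs as in the comparison over all arrays. No slide held both a TIC fraction and day 10 blood, so for that pair only a fit with slide as a block was possible, through the day 0 arrays. In it 2 of the genes were called higher against day 10 blood, Afp and Igfbp1, and with slide and mouse as blocks the same 2 genes were called against either blood. Igf2, Gpc3 and Dlk1 kept a positive difference of 0.19 to 0.37 in the fit with both blocks.

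Day 10 blood was compared with day 0 blood to see whether hepatoma transcripts entered blood while the tumour grew. None of the 6 genes was called, where 0% of all genes were called, with 2104 genes at an unadjusted p under 0.05 and none of the 6 among them. Afp differed by -0.03 ± 0.28, with a 95% interval of -0.66 to 0.60, and was higher at day 10 in 1 of 3 mice. Igfbp1 differed by 0.00 ± 0.21 (-0.47 to 0.47) and was not above background on either day. Igf2 differed by 0.04 (-0.20 to 0.28), Gpc3 by 0.01 (-0.25 to 0.27) and Dlk1 by -0.05 (-0.34 to 0.24), all without a signal above background in any blood. H19 had the largest difference of the 6, 0.30 ± 0.16 (-0.08 to 0.67, limma adjusted p = 0.469), and was higher at day 10 in 3 of 3 mice. None of the 6 was called in any of the 23 other settings in which they were tested. A rise of tumour RNA in blood was not detectable at this signal, and the intervals are on a scale that the offset of 50 units compresses for genes as dim as these. On the slide that held the 3 day 10 bloods beside day 0 blood of mouse 834, the differences of the 6 genes lay between -0.02 and 0.16.

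Genes tied to the members by pathway were counted from lists, beside all genes tested. Counts are for the TIC fraction against day 10 blood unless said otherwise. A fold given as at least is a bound on the group means on the single-channel scale, as for Igfbp1. The adjusted p-values belong to the fitted log2 ratio, whose difference can be smaller or larger than that bound. The direction of many lower calls depended on the scale, since with median centring 95.7% of called genes were higher and the median of all genes was 1.38, against 51.0% and 0.07 with loess.

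Among binding proteins, receptors and signalling partners of the insulin-like growth factors, 7 of 13 tested genes rose and 2 fell, with a median of 0.28. Igfbp4, another secreted binding protein, had a log2 ratio of 1.54 in the TIC fraction and -0.06 in day 10 blood (limma adjusted p = 4.62e-06). Irs1, which relays signals from the insulin and growth factor receptors, was at 2.30 and 0.09 (adjusted p = 6.59e-05). Igf1r, the signalling receptor for Igf2, was at -1.09 in the TIC fraction and 0.33 in day 10 blood (adjusted p = 9.44e-05), and turned to a difference of 0.06 (adjusted p = 0.778) with median centring. Igf2bp2, an RNA-binding protein of Igf2 mRNA, was at least 1.47-fold higher (adjusted p = 0.00129). Igf2r, the receptor that clears Igf2 and is itself imprinted, had a ratio lower by 0.50 but was not above background in day 10 blood. In day 10 blood, Igf1r alone of the 13 was above background on any array, so the filter had selected the others for a higher level in the TIC fraction and the count gives no support.

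Other imprinted genes mostly went the other way from Igf2 and Dlk1 on the loess scale, with 2 of 17 tested genes called higher, 9 lower and a median of -0.50. Mest, a paternally expressed gene of the mesoderm, was at -2.55 in the TIC fraction and 1.96 in day 10 blood, a difference of -4.51 ± 0.23 (limma adjusted p = 1.65e-06). It stayed lower with median centring, by -1.45 (adjusted p = 0.00299). Gnas, which encodes the stimulatory G protein subunit, differed by -4.02 ± 0.31 (adjusted p = 8.58e-06) and Sgce, epsilon-sarcoglycan, by -2.18 ± 0.15 (4.89e-06). With median centring these were 1.17 and 0.01 and neither passed (adjusted p = 0.0649 and 0.983). Over the list 4 genes were then called higher and 1 lower, beside 72.1% and 3.25% of all genes. Slc22a18, a transporter, also had a lower ratio (-1.76) but was not above background in day 10 blood, as were Plagl1, Zrsr1 and Igf2r of the lower calls, so these 4 have no reliable sign. The 2 genes that rose were Slc38a4, an amino acid transporter (at least 1.42-fold), and Kcnq1, a potassium channel (at least 1.14-fold). Both passed the filter through the TIC arrays alone, so the filter favoured that direction and their calls give no support.

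Transcription factors known to act on Afp, H19, Igf2 and other liver genes rose more often than they fell, 13 against 3 of 20 tested genes, with a median of 0.76. Of these 20, 15 were above background in the TIC fraction and on no day 10 blood array, so the filter favours higher calls and the balance gives no support. Foxa2, a forkhead factor of endoderm, was at least 6.89-fold higher in the TIC fraction (limma adjusted p = 1.40e-06). Tbx3, a T-box factor of hepatoblasts, was at least 7.68-fold higher (adjusted p = 1.01e-05). Neither was above background in day 10 blood. Nfic fell by 3.76 ± 0.41 (adjusted p = 6.13e-05) and was at 1.05 (adjusted p = 0.0841) with median centring. The other lower calls were Trp53 (-0.91) and Ctcf (-0.41), the factor that binds the control region between Igf2 and H19. Against day 0 blood 14 of the 20 rose and 3 fell, and Foxa3 was at least 3.38-fold higher (adjusted p = 1.70e-04).

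Other oncofetal and hepatoma-associated genes were called in both directions on the loess scale, with 6 higher and 7 lower of 16 tested and a median of -0.12. With median centring 13 were higher and 0 lower, beside 72.1% and 3.25% of all genes, with a median of 2.27 beside 1.38 over all genes. Sox9, a factor of biliary and progenitor cells, was at least 2.30-fold higher (limma adjusted p = 6.59e-04). It passed the filter through the TIC arrays alone, so the filter favoured that direction and its call gives no support. Cd24a, which is also carried by B cells and red cells, fell by 6.64 ± 0.30 (adjusted p = 1.11e-06), and with median centring it was at 0.14 (adjusted p = 0.825). Lcn2, a protein of neutrophil granules as well, fell by 1.29 ± 0.15 (adjusted p = 8.97e-05) and differed by -0.35 (adjusted p = 0.153) with median centring. Krt19 had a ratio lower by 1.82 but was not above background in day 10 blood.

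Gpc3 belongs to the glypicans, heparan sulfate proteins of the cell surface like the syndecans. In a list of both families with Notum and Cd81, which are not members of either, 5 of 8 tested genes rose and 2 had lower calls, with a median of 0.55. All 5 were glypicans or syndecans. Of these, 4 were not above background in day 10 blood, so the filter favours their direction and their calls give no support. The syndecans Sdc2 and Sdc1 were at least 3.82-fold and at least 2.0-fold higher in the TIC fraction (limma adjusted p = 1.91e-04 and 5.48e-04). Sdc3 fell by 1.52 ± 0.13 (adjusted p = 1.44e-05), and was higher by 1.06 (adjusted p = 0.0105) with median centring. Notum, a secreted enzyme that acts on Wnt proteins, had a ratio lower by 0.59 but was not above background in day 10 blood, and its single-channel bound was at least 3.98-fold higher, so it has no reliable sign. Of the glypicans, Gpc4 was at least 1.98-fold higher than in day 0 blood (adjusted p = 0.00472). In the Notch pathway, to which Dlk1 is related, 3 of 10 tested genes rose and 2 fell, with a median of 0.03. Over all genes 34.4% were called higher and 33.1% lower. Of the 10, 6 were above background in the TIC fraction and on no day 10 blood array. The 3 that rose were among these 6, so the filter favours their direction and their calls give no support. Jag1, a ligand, was at least 2.10-fold higher (adjusted p = 1.28e-04), and the receptors Notch4 and Notch3 at least 1.31-fold and at least 1.35-fold (0.00264 and 0.00307). Heyl, a target, fell by 4.22 ± 0.27 (adjusted p = 3.82e-06) and stayed lower with median centring, by 1.19 (adjusted p = 0.0110). Dlk2, the closest relative of Dlk1, fell by 1.42 ± 0.19 (adjusted p = 2.44e-04) but was higher by 1.76 (adjusted p = 0.00153) with median centring.

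Marker lists of cell types moved beside the 6 genes, and their part in the values above was not tested. Of 14 tested hepatocyte and hepatoma genes 12 rose and 1 fell, with a median of 1.86, in a list of which 10 genes were above background on no day 10 blood array and so had been selected for that direction. The median log2 ratio over the list was 1.98, 1.45 and 1.93 in the TIC fractions of mice 832, 833 and 834. Alb, which encodes albumin, was at least 72.8-fold higher, with a fitted difference of 3.67 (limma adjusted p = 2.42e-06). Ahsg, which encodes the plasma protein fetuin-A, instead fell by 3.51 ± 0.23 (adjusted p = 4.47e-06) and differed by -0.56 (adjusted p = 0.0631) with median centring. Of 22 leukocyte genes 3 rose and 9 fell, with a median of -0.58. Aif1, a macrophage gene, was at least 16.3-fold higher, with a fitted difference of 1.98 (adjusted p = 3.41e-06). The complement genes C1qc and C1qa, also of macrophages, were the other 2 that rose. Their bounds were at least 31.8-fold and at least 8.18-fold, with fitted differences of 1.95 and 0.71. Both passed the filter through the TIC arrays alone, so their calls give no support. The macrophage genes C1qb, Cd68, Csf1r and Adgre1 were not called, with differences of 0.06, 0.08, -0.54 and 0.51. With median centring 16 of the 22 leukocyte genes were called higher and 3 lower, beside 72.1% and 3.25% of all genes. All 7 tested red cell and platelet genes fell, with a median of -6.50, and all 7 also fell with median centring. Of 10 fibroblast and endothelial genes 2 rose and 6 fell with a median of -1.15. With median centring 8 were higher and 0 lower, beside the same 72.1% and 3.25% of all genes. Dcn, which encodes the matrix protein decorin, was at least 108-fold higher, with a fitted difference of 3.21 (adjusted p = 2.01e-06). It was above background on all 3 TIC arrays and on no day 10 blood array, so the filter favoured that direction and its call gives no support. The collagen genes Col1a1, Col1a2 and Col3a1 instead had ratios lower by 1.69, 1.66 and 1.07. Of these, Col1a1 and Col3a1 were not above background in day 10 blood. None of the listed genes was called between the bloods in this fit. With processed signals 3 of 7 red cell and platelet genes were higher and 4 of 22 leukocyte genes lower in day 10 blood than in day 0 blood. In that setting 0.958% of all genes were called higher and about 4% lower, with a median difference of -0.22 over all genes. The hepatocyte and hepatoma list and the fibroblast and endothelial list each had 1 gene higher there.

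**Figure D4:**
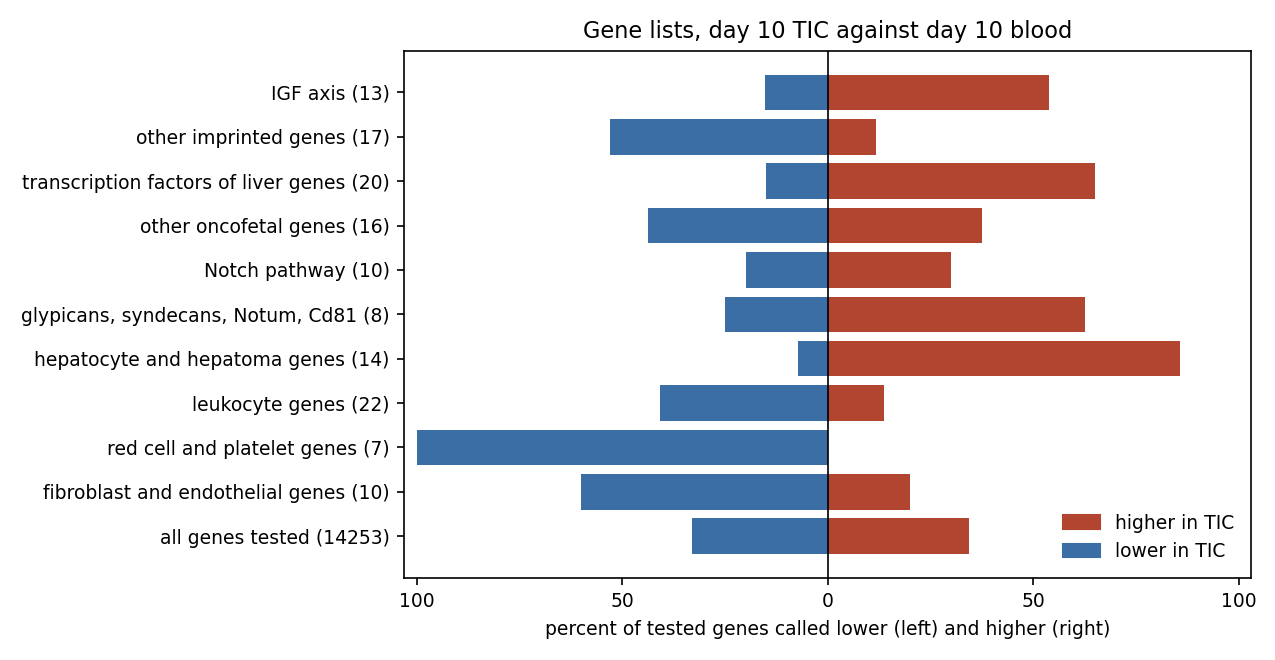
Percent of the tested genes of each list called lower (bars to the left) and higher (bars to the right) in the TIC fraction against day 10 blood at a limma adjusted p under 0.05, with the number tested in brackets and all genes tested at the bottom. Hepatocyte and hepatoma genes were mostly higher (12 of 14) and red cell and platelet genes all lower (7 of 7), beside 34.4% higher and 33.1% lower over all genes.

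The genes most like each member over the 9 arrays were taken by the correlation of log2 ratios, given as a description since the arrays share mice and a reference. Afp was most like Enpp2 (0.999), which encodes the secreted enzyme autotaxin, Egfr (0.999), a growth factor receptor, and Vil1 (0.998), an actin-binding protein of epithelial brush borders. Igfbp1 was most like Enpp2 (0.999), Egfr (0.998) and Rhox5 (0.998), a homeobox gene of testis and of many tumour lines. Enpp2, Egfr, Vil1 and Rhox5 were above background on the 3 TIC arrays and on no blood array, with differences against day 10 blood of 3.75, 1.99, 2.78 and 3.40. Above 0.95, 710 genes correlated with Afp, 752 with Igfbp1, 1027 with Igf2, 225 with Gpc3 and 1404 with H19. Igf2 was most like Tsr3 (0.992), Mtfp1 (0.991) and Rpl14 (0.991), and Gpc3 like Prodh (0.989), Haus2 (0.987) and Ppat (0.985). Dlk1 had the fewest like genes, 9 above 0.95, led by Mertk (0.963), Pom121 (0.963) and Klf12 (0.959). H19 was most like Vmn1r46 (0.996), Atp9b (0.995) and Ino80 (0.995), whose differences against day 10 blood were -3.45, -1.91 and -0.68.

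**Figure D5:**
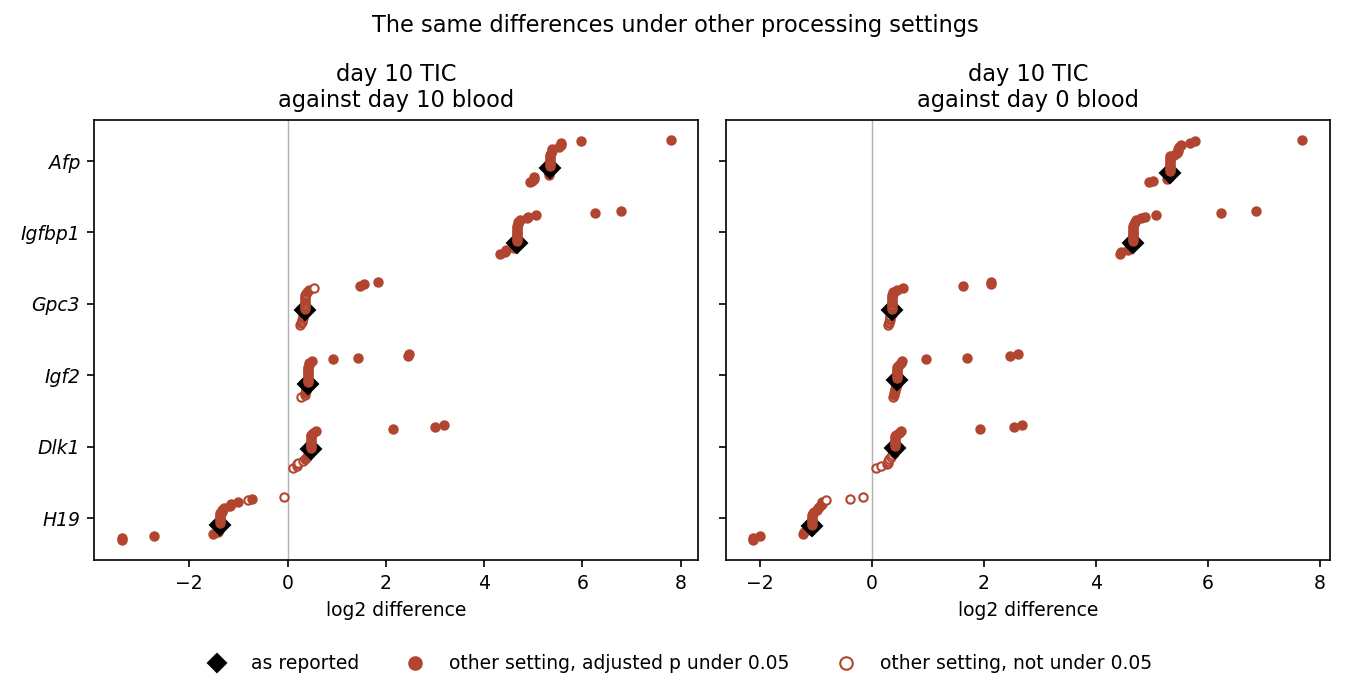
Log2 difference of each gene for the TIC fraction against day 10 blood (left) and against day 0 blood (right) as reported (black diamond) and under 23 other settings of background correction, normalization, filter, batch terms and arrays left out (circles, filled where the limma adjusted p was under 0.05). Afp stays between 4.94 and 7.80 and Igfbp1 between 4.33 and 6.79 against day 10 blood, while H19 runs from -3.37 to -0.08.

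Across the 23 settings no gene changed sign against either blood. The settings without an offset or with the scanner software's own signals gave the dim genes larger differences, up to 1.85 for Gpc3, 2.48 for Igf2 and 3.19 for Dlk1 against day 10 blood. The smallest differences over the settings were 0.26, 0.27 and 0.11 for these genes in the same order. Sizes for these 3 genes therefore depend on the setting, and their bounds hold for the single-channel scale alone.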

How the data were processed

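The authors deposited scanner tables of 9 arrays, made with Agilent Feature Extraction 10.5.1.1 per the file headers and 9.1.3.1 per the submitters' processing notes. They hold deposited intensity values per spot (mean, local background and processed) and a deposited log10 ratio, red dye over green, that the value table repeats. Dyes were not swapped. Mean spot intensity was corrected by normexp (offset 50) without spots of marked background, then loess was applied within arrays, with control and outlier spots at weight 0. Probes were kept where Cy5 was well above background on 3 or more of 9 arrays. For each gene the kept probe with the highest mean log2 intensity of both channels over the arrays was used. At H19 this was the dimmer probe in Cy5. Names came from RefSeq tables of GRCm38.p6, and probe positions are those of the files. limma 3.58.1 in R 4.3.3 was fitted to all 9 arrays with group as the only term, leaving 6 residual degrees of freedom, with Benjamini-Hochberg adjustment over all genes and a threshold of 0.05, and was tested on simulated data. Mouse numbers pair the samples because each number is 1 animal. Deviations correlated at 0.19 to 0.35 between bloods of 1 mouse and at -0.06 to 0.06 between blood and TIC fraction. From each list up to 4 genes with the smallest p per comparison could be named, and 3 genes most like each member, while further genes that complete a count of 5 or fewer were chosen after their values were seen. Members and lists were chosen with earlier results of these data known. The number of arrays limits the precision. One gene of the lists is counted but not reported here.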

Additional observations from a re-analysis of the deposited data

How the results depend on the processing

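Afp and Igfbp1 kept their direction and their call against both bloods in all 23 settings that held them, and the filter for signal above background on all 9 arrays left none of the 6 genes. Of the 6, 5 were higher against day 10 blood as reported, 3 with median centring (beside 72.1% of all genes), 3 with Cy5 alone (beside 34.7%), 2 with slide as a block, 2 with mouse as a replicate block and slide, and 4 with the replicate block of mouse alone, where Gpc3 was lost (adjusted p = 0.0506). Against day 0 blood 5 were higher as reported, 3 with Cy5 alone (beside 27.2% of all genes), 3 with slide as a block, 2 with the replicate block and slide, and 3 to 5 with 1 array left out, the 3 being without the TIC fraction or the day 0 blood of mouse 832. With 1 array left out it was 4 to 5 against day 10 blood. The mouse block changed no other call of a member. Genes called against day 10 blood numbered 9632, but 2956 where signal was required on all 9 arrays, 4275 under a slide block and 1110 with the replicate block and slide. Against day 0 blood they numbered 9321, but 2910 with signal on all 9 arrays and 4432 with the replicate block and slide. Called genes were higher in 51.0% and 48.5% as reported, in 95.7% and 92.0% with median centring and in 63.2% with processed signals against day 10 blood. Between the bloods 0 genes were called (2104 at an unadjusted p under 0.05), but 766 with processed signals, 761 with the deposited ratios, 15 with no offset, 550 with Cy5 alone, 147 with signal on all 9 arrays, 15 with slide as a random block, 32 with the replicate block, 749 with only the bloods in the fit, and 0 to 1058 with 1 array left out, the highest without the TIC fraction of mouse 833 and 18 without day 0 blood of mouse 834; the cause was not tested. Signal near background limits every blood value of the 6 genes.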
